A study of Mus musculus with 2 samples.

Results

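The members described here were 142 of 1427 wildtype microglia, captured 24 h after peripheral lipopolysaccharide (LPS), an outer-membrane molecule of bacteria used to provoke inflammation, and their transcriptomes held several transcripts of homeostatic genes and none of Saa3, an acute-phase gene induced by LPS. They were chosen by a rule on raw counts: cells of at least 500 unique molecular identifiers (UMIs, tags that mark single transcript molecules) and 100 genes, with 0 UMIs of Saa3 and at least 4 UMIs summed over P2ry12, P2ry13, Gpr34, Siglech and Fcrls. The study placed wildtype (WT LPS) beside PARK7/DJ-1 knock-out (KO LPS) mice, both given LPS at 4 ug per g body weight, to ask what the lack of DJ-1, mutated in inherited forms of Parkinson's disease, does to the microglial response. CD11b+CD45int cells were sorted from brain and captured by Drop-seq, which counts the 3' ends of transcripts in droplets. Each genotype had a single library from 2 mice, 1 of each sex, so there were no replicates, no test was made, and genotype cannot be told apart from library. Mouse age was not in the labels, and no library without LPS was analysed here. All intervals are at 95% and cover counting error only, not the spread between mice.

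Homeostatic microglia survey the healthy brain with mobile processes. P2ry12 and P2ry13 are purinergic receptors that sense extracellular nucleotides, and Gpr34 is a receptor for lysophosphatidylserine. Siglech is a surface receptor of the Siglec family, and Fcrls is an Fc receptor-like scavenger molecule. Expression of this group depends on TGF-beta signalling and on transcription factors such as Sall1 and PU.1, and it is known to decline when microglia respond to LPS, while chemokines, acute-phase genes and interferon-induced genes increase.

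Promoters are shown for the marker genes because these genes define the members. RefSeq promoters (GRCm38.p6, 250 bases before to 50 after the start that the promoter table uses, written 5' to 3' in the direction of the gene) were found for P2ry12 (chr3:59262936-59263235, minus strand), P2ry13 (chr3:59210833-59211132, minus strand), Siglech (chr7:55767934-55768233, plus strand) and Fcrls (chr3:87263475-87263774, minus strand). Gpr34 had no entry. For Fcrls and Siglech that start lies inside the outer bounds of the RefSeq gene, so the capitals of both, and most of the Fcrls stretch, fall within those bounds. Capitals mark GAGGAA, a core of PU.1 sites, or its reverse complement TTCCTC.
P2ry12: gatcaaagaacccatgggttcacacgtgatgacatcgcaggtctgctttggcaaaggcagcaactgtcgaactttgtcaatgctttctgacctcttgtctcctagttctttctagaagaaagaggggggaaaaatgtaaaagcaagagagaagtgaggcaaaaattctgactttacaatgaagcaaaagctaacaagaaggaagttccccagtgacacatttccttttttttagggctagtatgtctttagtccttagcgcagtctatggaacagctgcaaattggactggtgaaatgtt
P2ry13: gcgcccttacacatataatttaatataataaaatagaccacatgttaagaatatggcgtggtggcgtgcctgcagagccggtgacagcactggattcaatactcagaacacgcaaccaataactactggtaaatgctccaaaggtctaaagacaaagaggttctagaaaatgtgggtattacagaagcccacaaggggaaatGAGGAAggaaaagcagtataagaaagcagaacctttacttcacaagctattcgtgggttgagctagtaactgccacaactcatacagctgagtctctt
Siglech: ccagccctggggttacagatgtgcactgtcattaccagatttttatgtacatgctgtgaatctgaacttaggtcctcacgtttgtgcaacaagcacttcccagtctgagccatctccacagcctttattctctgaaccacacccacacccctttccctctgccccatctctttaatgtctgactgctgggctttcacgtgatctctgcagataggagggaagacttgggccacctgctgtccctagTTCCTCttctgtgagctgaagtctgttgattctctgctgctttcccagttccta
Fcrls: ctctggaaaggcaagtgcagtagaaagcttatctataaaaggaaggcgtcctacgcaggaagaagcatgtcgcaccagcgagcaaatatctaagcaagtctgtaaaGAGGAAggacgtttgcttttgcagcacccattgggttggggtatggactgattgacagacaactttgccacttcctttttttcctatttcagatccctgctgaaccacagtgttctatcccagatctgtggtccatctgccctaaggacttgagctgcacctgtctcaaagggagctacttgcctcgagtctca
The motif was present in 3 of these 4 promoters and in 28.3% of all 32851 promoters of that table, and a match of letters is a description, not a binding site. In RefSeq, P2ry12 and P2ry13 overlap Med12l, Gpr34 overlaps Cask, Siglech overlaps Gm39015 and Saa3 overlaps Gm31882. Whether counting used the strand is not given in the sources used here, so reads of such overlapping genes could not be told apart without it.

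The WT LPS library held 1427 cells and the KO LPS library 320, and no cell barcode was shared between them. The study, by its own cell calling, analysed more cells of each genotype, and the difference was proportionally larger for KO. WT LPS cells had a median depth of 1065 UMIs, compared with 963.5 for KO LPS. Park7, the targeted gene, had 323 UMIs in WT LPS cells (162 CPM, that is UMIs per 1e6 UMIs of the group) and 1 in KO LPS cells (2.62 CPM), so both libraries matched their labels. The members held 56 Park7 UMIs (198 CPM, 150 to 258). The other WT LPS cells fell into 220 cells with 0 Saa3 UMIs and a marker sum of 0, 482 with 0 Saa3 UMIs and a sum of 1 to 3, and 583 with Saa3 UMIs.

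The markers chose the members, so their levels in them are a description. P2ry12 had 220 UMIs in 106 of the 142 members (779 CPM), with at most 10 in a cell. Siglech had 184 UMIs in 102 members and Fcrls 186 in 99. Gpr34 and P2ry13 were detected in fewer members, with 122 UMIs in 73 and 100 UMIs in 64 cells. Most members therefore carried several of the markers: 65 had 3 of the 5, 33 had 2, 33 had 4, 10 had all 5 and 1 had a single marker.

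The members were concentrated at the threshold. A sum of 4 was found in 52 members (36.6%) and a sum of 5 in 40, and 50 members reached 6 or more, with a highest sum of 20. Just outside the threshold, 99 cells with 0 Saa3 UMIs had a sum of 3. The distribution of sums showed no gap at 4 UMIs, and the number of cells declined steadily from a sum of 1 upward to 8.

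**Figure D1:**
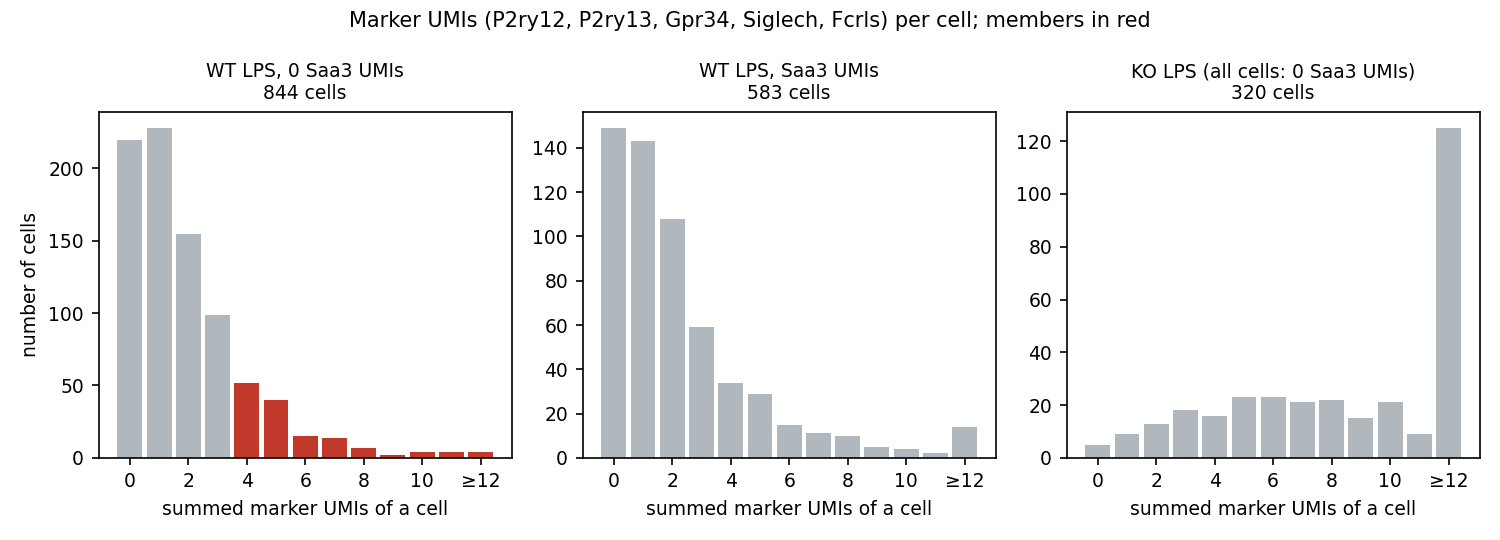
Number of cells (y axis) by summed UMIs of the 5 markers per cell (x axis, 12 or more pooled) in WT LPS cells without Saa3 UMIs, WT LPS cells with Saa3 UMIs and KO LPS cells, with the 142 members in red. In WT LPS the counts decline from sums of 0 and 1, with 220 and 228 cells, while 125 of 320 KO LPS cells hold 12 or more.

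Sequencing depth moved with the rule. Median depth was 756.5 UMIs at a sum of 0, 1189 at a sum of 3, 1368 at a sum of 4 and 1911 at a sum of 5. Members as a whole had a median of 1750.5 UMIs (range 529 to 7922). When every cell was thinned to 500 UMIs, 24 of 1427 WT LPS cells (1.68%, 1.08 to 2.49) still had a sum of at least 4, and 17 of these (1.19% of cells, 0.695 to 1.90) also had no Saa3 UMI. Droplets of 500 UMIs drawn only from free RNA, as measured in barcodes of at most 100 UMIs, would reach a sum of at least 4 in 0.747% of cases, whatever their Saa3 count, which lies below the interval of the 1.68%. A sum of at least 1 was found in 50.2% of thinned cells, against 53.0% from free RNA alone. The part of free RNA in single members was not tested.

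The KO LPS cells meeting the same rule gave the scale. They were 275 of 320 cells (85.9%, 81.6 to 89.6), against 9.95% (8.45 to 11.6) of WT LPS cells, and no KO LPS cell held a Saa3 UMI. The 5 markers summed to 2876 CPM in members (2681 to 3081) and to 10470 CPM in these KO LPS cells. P2ry12 alone stood at 4124 CPM in them, against 779 CPM in members, although both groups were selected on it. Thinned to 500 UMIs, 60.9% of KO LPS cells had a sum of at least 4, where free RNA of that library alone would give 77.2%. In KO LPS the share was therefore not above its background, and it cannot be read as a number of expressing cells.

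The genes outside the rule were compared between members and WT LPS cells with 0 Saa3 UMIs and a sum of 0, after pairing cells 1 to 1 within 10% of depth. This gave 66 pairs, with median depths of 1143.5 and 1135 UMIs, and the deeper members had no partner. The marker genes and Saa3 were left out of all totals. Among the 987 genes tested, which had 30 UMIs or more in both groups together, 107 (10.8%) were at least 1.5-fold higher in members and 105 (10.6%) at least 1.5-fold lower, and the median log2 ratio of all of them was -0.01.

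Other homeostatic genes were slightly higher in members. The 32 listed genes held 4435 UMIs in the paired members and 3521 in the paired cells with a sum of 0, a ratio of 1.25 (1.20 to 1.31). Of the 19 list genes tested, 18 were higher in members, 3 of them past 1.5-fold and none of them lower past that fold, with a median log2 ratio of 0.33, where 10.8% of all genes tested were higher past it. The list took 5.72% of a member's UMIs at the median (range 1.90% to 8.84%) and 4.83% in the paired cells (0.709% to 8.85%), so the cells overlapped almost completely.

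Trem2, a lipid-sensing receptor of phagocytic microglia, had 37 UMIs in members and 15 in the paired cells (ratio 2.45, 1.31 to 4.81). Selplg, the ligand of P-selectin, had 72 and 43 UMIs (1.66, 1.12 to 2.49), and Olfml3, a secreted matrix protein, 54 and 35 (1.53, 0.984 to 2.42). These were the list genes past 1.5-fold, and the interval of Olfml3 reached below 1. Among the abundant genes, the fractalkine receptor Cx3cr1 had 368 and 268 UMIs (1.36, 1.16 to 1.60), the cathepsin Ctss 1007 and 735 (1.36, 1.237 to 1.499), and the cystatin Cst3 1483 and 1168 (1.26, 1.17 to 1.36). Cst3 and Ctss together held most of the list's UMIs in both groups, so the summed ratio rests largely on them. Tmem119, a microglial membrane protein, had 40 and 34 UMIs (1.17, 0.722 to 1.90), and Itgam, which encodes the CD11b used in the sort, was the single list gene below 1, with 120 and 147 UMIs (0.811, 0.632 to 1.04). Lgmn, Tgfbr1, Entpd1, Itgb5, Bin1, Tanc2, Sparc, Csf1r, Mertk and Golm1 lay between 1.08 and 1.42.

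**Figure D2:**
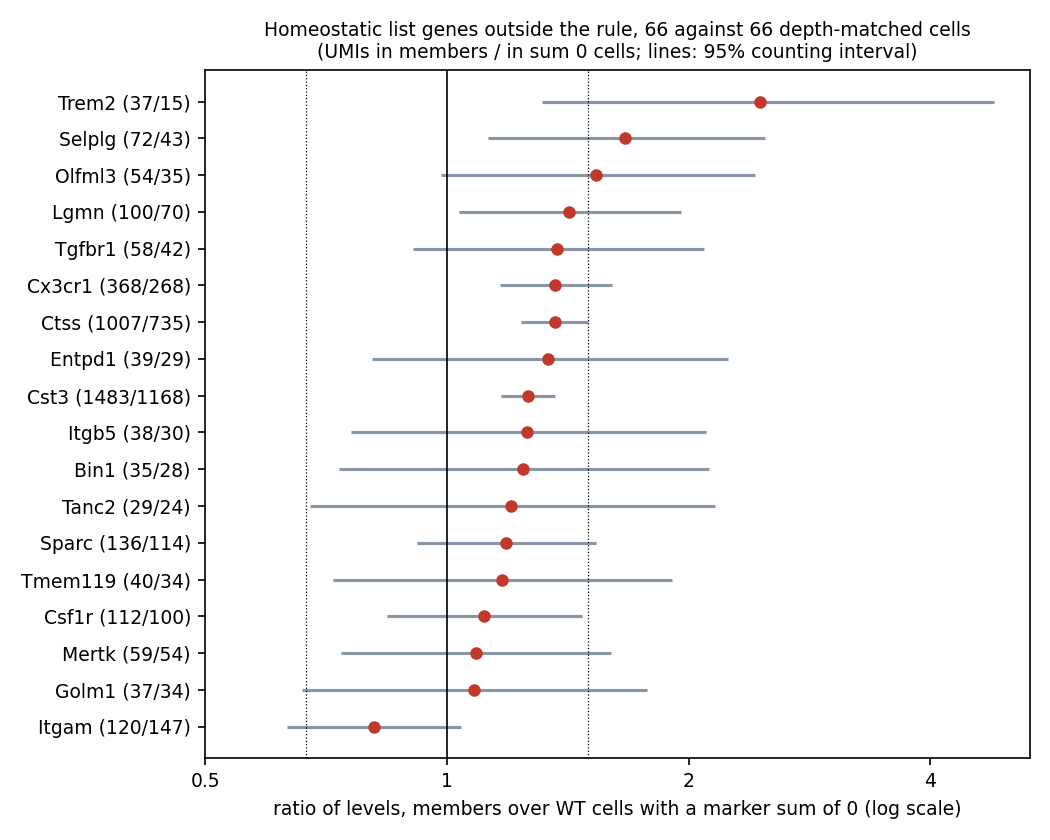
Ratio of levels in members over WT LPS cells with a marker sum of 0 (x axis, log scale) for 18 of the 19 homeostatic list genes tested, in 66 depth-matched pairs. Points are ratios, lines 95% counting intervals, dotted lines mark 1.5-fold in both directions, and the numbers beside each name are UMIs in members and in the other cells. All genes drawn but Itgam lie above 1, from 1.08 for Golm1 to 2.45 for Trem2.

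Among all genes with at least 100 UMIs, homeostatic or not, those highest in members were Selplg and Hpgds, the hematopoietic prostaglandin D synthase (73 and 44 UMIs, 1.65, 1.12 to 2.45), followed by the secreted ribonuclease Rnase4 (62 and 40, 1.54, 1.02 to 2.35). The actin-bundling Lcp1, the lysosomal protease Ctsd, the protease Lgmn, the tetraspanin Cd81, the actin regulator Arpc2, the TGF-beta receptor Tgfbr1 and Cx3cr1 completed the 10 highest, with ratios from 1.36 to 1.45. Complement and Fc receptor genes were higher as a sum, with 1705 and 1431 UMIs (1.18, 1.10 to 1.27), and 10 of 11 tested genes were above 1, none past 1.5-fold. The complement components C1qa, C1qb and C1qc had ratios of 1.15, 1.24 and 1.20. Lysosomal genes summed to 682 and 610 UMIs (1.11, 0.995 to 1.24), with the cathepsin Ctsh (61 and 38 UMIs) and the lysosomal membrane protein Laptm4a (32 and 19) past 1.5-fold. Genes of the identity transcription factor list, which holds regulators of the microglial program, stood level at 491 and 486 UMIs (1.00, 0.884 to 1.14), with Zeb2 at 63 and 92 UMIs (0.680, 0.486 to 0.948). Runx1 (22 and 12 UMIs, 0.863 to 4.04), Tcf4 (20 and 10, 0.888 to 4.75) and Zfhx3 (29 and 16, 0.946 to 3.55) were past 1.5-fold, but the intervals of their ratios held 1. Over all cells Runx1 was at 195 CPM in members and 189 in cells with a sum of 0, and Tcf4 at 149 and 184. The TGF-beta list was level too (0.967, 0.765 to 1.22).

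Inflammatory genes were lower in the paired members. The list held 910 UMIs in members and 1166 in cells with a sum of 0 (0.776, 0.710 to 0.847), and of 20 genes tested, 8 were lower past 1.5-fold and 0 higher, where 10.6% of all genes tested were lower past it, with a median log2 ratio of -0.36. Cxcl13, a chemokine that attracts B lymphocytes, had 0 UMIs in members and 71 in the other cells, of which 51 were in 1 cell. Lcn2, the siderophore-binding lipocalin, had 13 and 40 UMIs (0.323, 0.158 to 0.616). Gpr84, a receptor for medium-chain fatty acids, had 48 and 73 (0.653, 0.444 to 0.953). Other inflammatory genes did not share this direction: the chemokine Ccl12 had 205 and 166 UMIs (1.23, 0.995 to 1.52) and the receptor Tlr2 31 and 21 (1.47, 0.816 to 2.69). Without the cell with most inflammatory UMIs in each group the list stood at 0.816 (0.745 to 0.893). The difference did not hold under several other choices: all 142 members against all 220 cells gave 0.976 (0.927 to 1.03), cells thinned to 500 UMIs 0.984 (0.903 to 1.07), members with a sum of at least 3 in 127 pairs 0.963 (0.900 to 1.03), and comparison cells with a sum of 0 to 3 in 118 pairs 0.953 (0.902 to 1.01). The cause was not tested.

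Interferon-induced genes were lower as sums as well. The type II interferon list had 119 and 174 UMIs in the pairs (0.680, 0.534 to 0.863), but over all cells it stood at 1726 CPM in members (1576 to 1887) and 1789 in cells with a sum of 0 (1604 to 1990), so the difference was seen in the pairs alone. The type I interferon list had 381 and 443 UMIs (0.855, 0.743 to 0.982), with 2 of 9 genes lower past 1.5-fold, the RNA sensor Ifih1 (10 and 22 UMIs) and the antiviral membrane protein Ifitm3 (25 and 39), where 10.6% of all genes tested were lower past that fold. The type I interferon difference did not hold under these choices, where its interval reached 1. It was 0.949 (0.875 to 1.03) without the depth match, 0.935 (0.818 to 1.07) after thinning, 0.980 (0.887 to 1.08) without the Saa3 condition, 0.954 (0.793 to 1.15) without cells with UMIs of other types, and 1.07 (0.981 to 1.18) with comparison cells of a sum of 0 to 3. Gbp7, an interferon-induced guanylate-binding protein, had the lowest ratio of all genes with at least 100 UMIs (38 and 75 UMIs, 0.503, 0.331 to 0.753), and was the single gene of the type II interferon list that was tested. Filip1l, a filamin-interacting protein (37 and 70 UMIs, 0.525, 0.343 to 0.793), followed it. Xist, Gpr84, Slc25a5, Hnrnpu, Zeb2, mt-Nd2, Cdk11b and Tln1 completed the 10 lowest, with ratios from 0.648 to 0.712. The nuclear-retained and splicing list was lower as a sum (4471 and 5082 UMIs, 0.874, 0.840 to 0.910), with 16 of 20 genes below 1. Free RNA of the WT LPS library held this list at 102930 CPM, against 73404 in all cells with a sum of 0 and 51781 in all members. It held the homeostatic list at 32170 CPM, against 42991 and 54715, and the inflammatory list at 6695, against 13015 and 12705. Cells with a sum of 0 stood nearer to free RNA than members for the first 2 lists, and members nearer for the third. The part of free RNA in this comparison was not tested.

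Several other measures moved with this comparison, and their part in it was not tested. Of cells whose UMIs gave 1 sex, 12 of 26 paired members (46.2%) were male, with Y-linked UMIs and no Xist, against 4 of 28 (14.3%) paired cells with a sum of 0, and Xist, the X-inactivation transcript, was among the lowest genes. Within cells with Xist and no Y-linked UMI the homeostatic ratio was 1.25 (1.15 to 1.35, 20 pairs) and within male cells it was 1.26 (1.09 to 1.45, 8 pairs), while in the former the type I interferon ratio was 1.11 (0.872 to 1.40) and the inflammatory ratio 0.919 (0.797 to 1.06). The neutrophil list had 25 and 70 UMIs, of which 52 were in 1 cell with a sum of 0, and the oligodendrocyte list 71 and 41 UMIs, mostly Trf (61 and 38), with Mog, Mobp, Mal and Olig1 at 0 in both groups. T or NK lymphocyte and erythroid lists held 0 UMIs in both, the monocyte list 12 and 7, the border macrophage list 26 and 32, the B lymphocyte list 6 and 5, the astrocyte list 10 and 11, the endothelial list 17 and 21, the neuronal list 1 and 10, and the choroid plexus list 0 and 1. Over all 142 members, UMIs of the monocyte list were found in 25 cells (17.6%), mostly Ms4a4c (14 UMIs) and Fn1 (13), of the border macrophage list in 64 (45.1%, 107 UMIs) and of the B lymphocyte list in 15 (10.6%), mostly Ighm (17 UMIs). In the same cells, Ly6c2, Plac8 and Chi3l3 of the monocyte list, Cd163, Lyve1 and Ms4a7 of the border macrophage list and Cd79a of the B lymphocyte list were at 0.

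Saa3 was part of the rule, but its relation to the markers could be described in all WT LPS cells. In 114 pairs of equal depth, 35 cells with a marker sum of at least 4 had Saa3 UMIs (30.7%, 22.4 to 40.0), against 56 cells with a sum of 0 (49.1%, 39.6 to 58.7). The Saa3 level was 1975 CPM in the former and 5590 in the latter. Without pairing the shares were 46.6% and 40.4%, the opposite order, at median depths of 2092.5 and 789 UMIs.

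Against cells with 0 Saa3 UMIs and a sum of 1 to 3, the homeostatic and inflammatory lists were close to level, while other lists differed. In 116 pairs, 257 of 2652 genes (9.69%) were at least 1.5-fold higher in members and 203 (7.65%) at least 1.5-fold lower. The homeostatic list had a ratio of 1.02 (0.988 to 1.04) and the inflammatory list one of 0.992 (0.937 to 1.05), whereas the type I interferon list was at 1.19 (1.08 to 1.30), the direction opposite to that seen against cells with a sum of 0. Selplg (145 and 101 UMIs, 1.42, 1.09 to 1.84) and Hpgds (175 and 119, 1.45, 1.14 to 1.85) were higher in members here too, although the comparisons share the members and so are not independent. Sums were higher in members for identity transcription factors (1.15, 1.06 to 1.25), type II interferon (1.21, 1.03 to 1.42) and immediate early genes (1.16, 1.06 to 1.27). The nuclear-retained and splicing list was slightly higher too (1.04, 1.01 to 1.07), again opposite to its direction against cells with a sum of 0. They were lower for scavenger receptors (0.830, 0.729 to 0.944), antigen presentation (0.870, 0.805 to 0.941), disease-associated microglia (0.895, 0.851 to 0.941) and antioxidant genes (0.857, 0.758 to 0.969). The astrocyte list had 28 UMIs in members and 137 in the other cells, of which 107 were in 1 cell. The neuron list had 3 and 16 UMIs (0.185, 0.0345 to 0.646). Sex moved as well, with 25 paired members showing only Y-linked UMIs and 33 only Xist, against 18 and 48 of the other cells. Their part in this comparison was not tested.

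Against WT LPS cells with Saa3 UMIs, all 142 members could be paired. At least 1.5-fold differences were found for 291 of 3773 genes (7.71%) in the higher direction and 280 (7.42%) in the lower. The homeostatic list was at 1.09 (1.07 to 1.12) and the inflammatory list at 0.896 (0.857 to 0.938), with 10 of 33 inflammatory genes lower past 1.5-fold and 4 higher. Immediate early genes were at 1.14 (1.05 to 1.22). Markers of other cells moved with this comparison, with 248 and 184 UMIs of the oligodendrocyte list (1.35, 1.11 to 1.64) and 4 and 26 of the neuron list (0.154, 0.0391 to 0.444). So did sex, with 31 members showing only Y-linked UMIs and 47 only Xist, against 24 and 65 of the paired Saa3 cells. Their part in it was not tested. Saa3 chose these groups, so genes that accompany it were bound to the rule. Marco, a scavenger receptor for bacteria, was lowest at 30 and 147 UMIs (0.204, 0.133 to 0.304), with 68 of the 147 in 1 cell, and Ccl3 followed at 20 and 84 UMIs, of which 47 were in 1 cell. Ccl5 (61 and 175 UMIs, 0.349, 0.257 to 0.470), Lcn2 (61 and 172, 0.355, 0.261 to 0.478), lysozyme Lyz2 (90 and 200, 0.451, 0.348 to 0.581) and ceruloplasmin Cp (44 and 90, 0.490, 0.333 to 0.710) were spread over more cells. The inflammatory genes higher in members were Il1a, Il1b, Socs3 and Cxcl10, with 24 of the 35 Cxcl10 UMIs in 1 member. Selplg (216 and 167 UMIs, 1.30, 1.05 to 1.60) and Hpgds (244 and 168, 1.45, 1.19 to 1.78) were higher in members here as well.

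A larger share of genes differed between members and KO LPS cells than in any of the comparisons within WT LPS. In 121 pairs with KO LPS cells that met the same rule, 749 of 2971 genes (25.2%) were at least 1.5-fold higher in members and 784 (26.4%) at least 1.5-fold lower. The mean marker sum of the paired cells was 5.45 in members and 17.8 in KO LPS cells.

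Homeostatic genes outside the rule were lower in members than in KO LPS cells, and free RNA of the KO LPS library held this list at 61571 CPM, against 32170 CPM in WT LPS. The list stood at 0.724 (0.707 to 0.742), and 22 of 30 tested genes were lower past 1.5-fold, with none higher past that fold and a median log2 ratio of -1.08, where 26.4% of all genes tested were lower past it. Genes low in members could reach the minimum of 30 UMIs through the KO LPS cells, which fixed the direction of any such gene. Tgfbr1 had 142 UMIs in members and 416 in KO LPS cells (0.336, 0.275 to 0.407), Selplg 157 and 398 (0.388, 0.320 to 0.468), Trem2 88 and 186 (0.465, 0.357 to 0.603), Tmem119 115 and 208 (0.544, 0.429 to 0.686) and Cx3cr1 874 and 1374 (0.625, 0.574 to 0.681). Ctss was higher in members, at 2602 and 1746 UMIs (1.47, 1.38 to 1.56). Identity transcription factors (0.512, 0.478 to 0.548) and TGF-beta signalling genes (0.480, 0.424 to 0.543) were lower as sums. Sall1, which maintains microglial identity, had 26 and 86 UMIs. Pde3b, a phosphodiesterase, was the lowest gene (31 and 148, 0.206, 0.135 to 0.305), followed by Pmepa1, a target and inhibitor of TGF-beta signalling (35 and 158, 0.218, 0.147 to 0.316).

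Inflammatory and interferon-induced genes were higher in members than in KO LPS cells. Over all 275 KO LPS cells meeting the rule, 17 inflammatory and 12 type I interferon list genes were at 0 UMIs, against 4 and 2 over the 142 members. The inflammatory list held 2572 UMIs in members and 898 in KO LPS cells (2.82, 2.61 to 3.04), detected in 120 and 118 of the 121 cells, with 21 of 24 tested genes higher past 1.5-fold, where 25.2% of all genes tested were. The type I interferon list held 970 and 261 UMIs (3.65, 3.18 to 4.21), with 14 of 15 tested genes higher past that fold. Genes near 0 in KO LPS cells reached the minimum of 30 UMIs through the members, which fixed the direction of part of both counts. Msr1, the macrophage scavenger receptor, had 260 UMIs in 88 paired members and 0 in KO LPS cells. This was 85.2-fold higher against a floor of 3 counts over the group, and the exact interval began at 68.8. Ccl12 had 520 UMIs in 82 members and 1 in KO LPS cells (ratio 511, 91.4 to 20232). By the same floor, Ifitm3 (81 and 0 UMIs) was 26.5-fold and Lcn2 (49 and 0) 16.1-fold higher, with exact intervals that began at 21.1 and 12.6. Gpr84 had 157 and 17 UMIs (9.08, 5.49 to 16.0). Marcks, a protein kinase C substrate, was the inflammatory list gene lower past 1.5-fold, at 312 and 607 UMIs. Xist was 0.250 of its KO LPS level (0.205 to 0.303), and 11 of 189 KO LPS cells meeting the rule and showing 1 sex were male (5.82%), against 31 of 78 members (39.7%). Lists of other cells moved with this comparison: the choroid plexus list had 0 UMIs in members and 43 in 36 KO LPS cells, the astrocyte list 31 and 62 UMIs, the B lymphocyte list 9 and 31, the neutrophil list 57 and 83, the monocyte list 25 and 11, and the mitosis list 15 and 126, of which 82 were in 1 cell. Their part in the differences, and that of free RNA, was not tested.

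**Figure D3:**
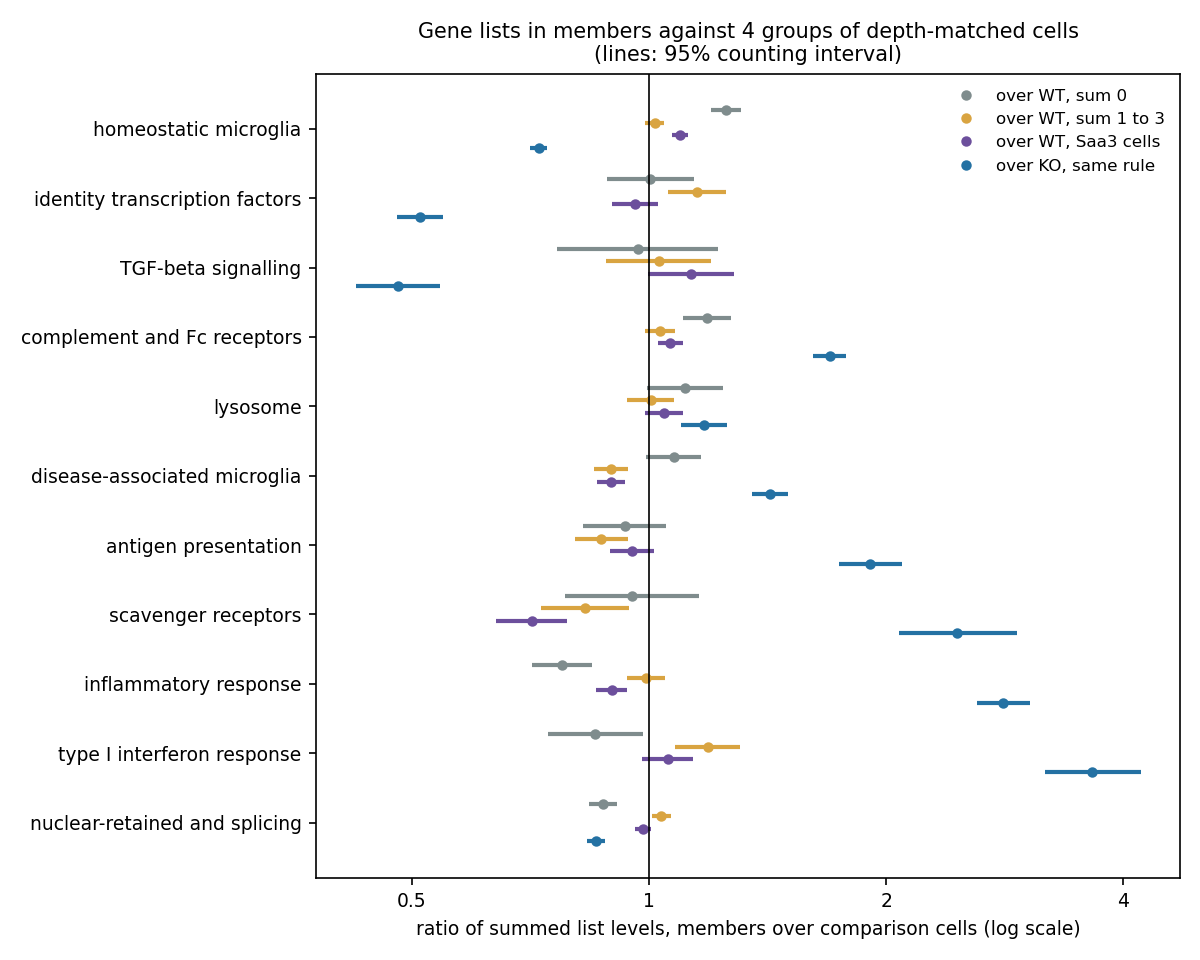
Ratio of summed UMIs of 11 gene lists in members over each of 4 groups of depth-matched cells (x axis, log scale), with points for ratios and lines for 95% counting intervals. For the 11 of 18 state lists drawn, ratios over the 3 WT LPS groups stay between 0.710 and 1.25, while those over KO LPS cells run from 0.480 for TGF-beta signalling to 3.65 for the type I interferon list. Lists not drawn go past these ranges, among them type II interferon (0.680) and DNA replication and repair (1.42) over a sum of 0, mitosis over a sum of 1 to 3 (0.288) and over KO LPS cells (0.117), and purinergic signalling over KO LPS cells (0.395).

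**Figure D4:**
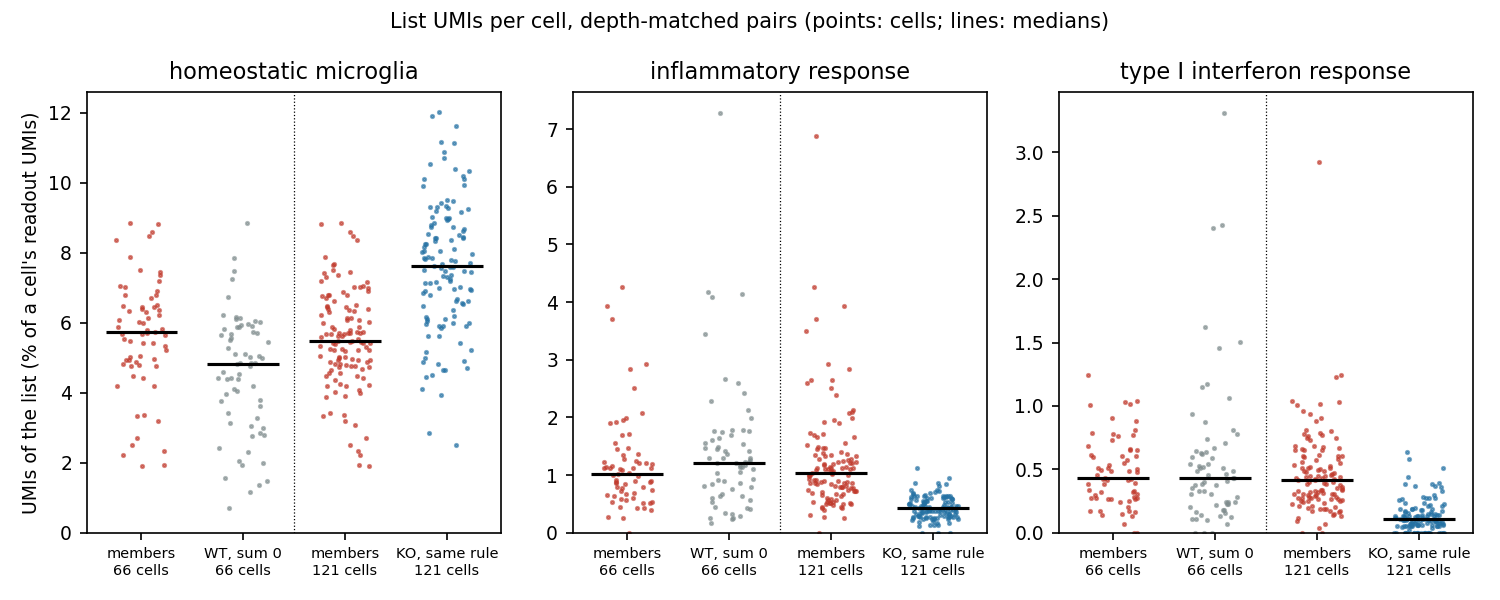
UMIs of 3 gene lists in percent of a cell's UMIs outside the rule (y axis) in depth-matched pairs of members with WT LPS cells of sum 0 (66 pairs) and with KO LPS cells meeting the rule (121 pairs); points are cells and lines medians. Members and WT LPS cells overlap in all 3 lists, with homeostatic medians of 5.72% and 4.83%, and those of members and KO LPS cells overlap too, with inflammatory medians of 1.04% and 0.423% and type I interferon medians of 0.420% and 0.105%.

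The members also differed among themselves. Over all 142, the homeostatic list outside the rule took 1.77% to 8.84% of a cell's UMIs (median 5.47%), the inflammatory list 0% to 6.88% (median 1.10%) and the type I interferon list 0% to 2.93% (median 0.428%). All but 1 member had UMIs of inflammatory genes, and all but 2 had UMIs of type I interferon genes. Free RNA of the WT LPS library held these lists too, at 6695 CPM (inflammatory) and 4157 CPM (type I interferon) in barcodes of at most 100 UMIs, against 12705 and 5115 CPM over the members, so a UMI in a member does not show that the cell expressed the gene. Ccl12 was detected in 96 members (67.6%), Msr1 in 107, the NF-kappaB inhibitor Nfkbia in 103, Gpr84 in 88, Ifitm3 in 68 and Lcn2 in 28. In KO LPS cells meeting the rule, at lower depth, Ccl12 was detected in 4 of 275, Msr1 in 1, Gpr84 in 24 and Ifitm3 and Lcn2 in 0. At this depth 0 of 275 cells allows up to 1.09% of cells with a UMI, which does not limit the share of cells expressing the gene.

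**Figure D5:**
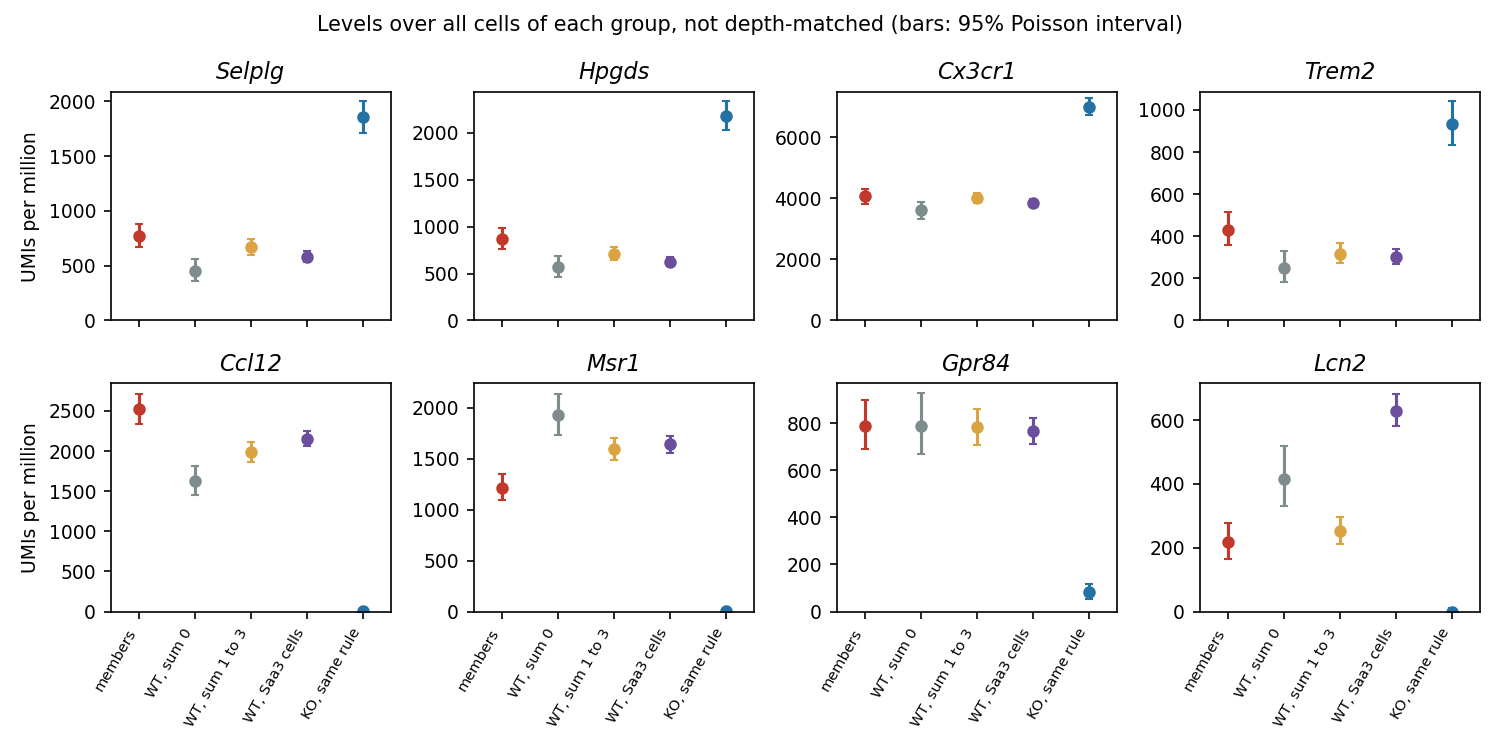
CPM (y axis) of 8 genes over all cells of the members and of 4 other groups, without depth matching; bars are 95% Poisson intervals. For each gene drawn, the members lie nearer to at least 1 other WT LPS group than to KO LPS cells, with Ccl12 at 2518 in members and 11.7 in KO LPS cells, and Selplg at 767 and 1853.

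Within the members, those with more marker UMIs had fewer inflammatory UMIs. In 47 pairs of equal depth, members with a sum of at least 6 over those with 4 or 5 gave a ratio of 0.765 (0.707 to 0.828) for the inflammatory list, 1.07 (1.03 to 1.11) for the homeostatic list, 0.934 (0.899 to 0.970) for nuclear-retained and splicing transcripts and 1.10 (0.971 to 1.25) for type I interferon genes. Male over female members, in 28 pairs, gave 0.720 (0.651 to 0.796) for the inflammatory, 0.760 (0.650 to 0.887) for the type I interferon and 1.07 (1.02 to 1.12) for the homeostatic list. Over all 31 male and 47 female members the type I interferon ratio was 1.01 (0.881 to 1.15) and the inflammatory ratio 0.873, with an interval that ended at 0.951, so the type I interferon difference was seen in the pairs alone. Since 1 mouse of each sex entered the library, sex and animal cannot be told apart. Members with P2ry12 UMIs and those without, in 36 pairs, differed by 0.929 (0.887 to 0.973) in the homeostatic list and by 1.05 (0.953 to 1.15) in the inflammatory list.

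Checked against these data, the label of wildtype microglia keeping homeostatic genes applied to the markers that chose the members and, to a slight degree, to other homeostatic genes at a sum of 0 as the comparison. The members' homeostatic level was 54715 CPM (53854 to 55586). It was 42991 in cells with a sum of 0, 50961 at a sum of 1 to 3, 49247 in cells with Saa3 UMIs and 77036 in KO LPS cells meeting the rule. Their inflammatory level was 12705 CPM (12292 to 13128), against 13015, 12292, 13919 and 4431 in these groups, in the same order.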

How the data were processed

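Sorted CD11b+CD45int cells of 2 libraries, WT LPS and KO LPS, were measured by Drop-seq. For each library the authors deposited raw counts (UMIs per gene and barcode) for 9999 barcodes, and missing values were read as 0. The submitters' processing notes name STAR without a version, bcl2fastq 2.0 and both mm9 and mm10; the counting program is not given in the sources used here. The 1427 and 320 barcodes with at least 500 UMIs and 100 genes were taken as cells (median 1065 and 963.5 UMIs), and no doublet caller was run, so doublets were left in. Of the members, 11 held both Xist and Y-linked UMIs, the UMIs of both mice.

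Members were paired 1 to 1 with comparison cells whose UMIs outside the rule lay within 10%, by optimal assignment. UMIs were summed over cells, and genes with at least 30 UMIs over both groups were called past 1.5-fold, with a prior count of 0.5 for ranking and a floor of 3 counts over a group at 0. Exact conditional binomial, Poisson and Clopper-Pearson intervals (95%) were used, which treat UMIs as independent and leave out the spread between cells and mice. MAST, the study's test across cells, was left out, since cells of 1 library are not replicates. There were 29 gene lists, 18 of microglial states and 11 of other cells. Genes were named by rule: Park7, the markers and Saa3, the 10 highest and lowest ratios among genes with at least 100 UMIs, the homeostatic list genes tested, the 2 highest and 2 lowest of other state lists, and the highest gene of lists of other cells, with 1 homeostatic list gene not reported here on its own. The same ranking was used against Saa3 and KO LPS cells; other genes named were chosen after their values were seen. Members and lists were chosen with earlier results of these data known, and some list genes are ones the study itself took from these libraries. Alternatives covered depth, the size filter, thresholds, Saa3, sex, other cell types, free RNA, scaling, low counts and fold. Matplotlib 3.10.9, pandas 2.3.3, scipy 1.17.1 and numpy 2.4.6 were run under Python 3.11.15, and the calculations were tested on simulated counts.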

Additional observations from a re-analysis of the deposited data

Results flagged for a closer look

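KO LPS barcodes of at most 100 UMIs, which are too small to be cells and serve here as the measure of free RNA, held the 5 marker genes at 10557 CPM (UMIs per 1e6 UMIs) (10110 to 11019), against 1511 (1378 to 1653) in WT LPS barcodes of that size. This is close to the 10470 CPM of KO LPS cells meeting the rule. The KO LPS library had 9069 such barcodes and the WT LPS library 4267. Beside the members' 2876 CPM, the marker level in free RNA of their own library was 1511.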

How the results depend on the processing

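Against cells with a sum of 0, 107 genes were higher and 105 lower past 1.5-fold, the homeostatic ratio was 1.25, the inflammatory 0.776, the type I interferon 0.855, and the KO LPS minus WT LPS difference in the share of cells meeting the rule was 76.0 percentage points. Without depth matching there were 470 higher and 373 lower genes and an inflammatory ratio of 0.976. Thinning to 500 UMIs gave 166 lower genes, an inflammatory ratio of 0.984 and a share difference of 59.7. A size filter of 1000 UMIs gave an inflammatory ratio of 0.698 and a share difference of 81.0. A marker sum of at least 3 gave 203 and 212 genes and an inflammatory ratio of 0.963, and a sum of at least 6 gave 44 and 56 genes and a share difference of 70.2. With cells of a sum of 0 to 3 as the comparison there were 254 and 217 genes, and the homeostatic ratio was 1.04, the inflammatory 0.953 and the type I interferon, in the opposite direction, 1.07. Without a condition on Saa3 there were 221 and 234 genes. Cells with Xist and no Y-linked UMI gave 27 and 31 genes, an inflammatory ratio of 0.919, a type I interferon ratio in the opposite direction of 1.11 and a share difference of 80.7, and male cells gave 5 and 4 genes. Leaving out cells with UMIs of other types gave 43 and 52 genes and a share difference of 80.3. No minimum of UMIs gave 3193 and 3111 genes, a minimum of 100 gave 3 and 5, and 2-fold gave 22 and 22. The cause was not tested, beyond the numbers of genes and cells that each setting changes. Under the other alternatives the homeostatic ratio lay between 1.20 and 1.30. Leaving out the cell with most inflammatory UMIs was chosen after seeing the data. With 66 pairs at median depths of 1143.5 and 1135 UMIs, genes under 100 UMIs had wide intervals, and only 142 cells of 1 library stood for the members. No test was made, paired or not, since each genotype had 1 library. The pairs matched single cells on depth, and the alternatives by sex compared cells within 1 sex.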

Other observations

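DNA replication and repair genes took more of the members' UMIs than of cells with a sum of 0 (106 and 74 UMIs in 66 pairs, ratio 1.42, 1.05 to 1.94), of cells with a sum of 1 to 3 (257 and 196, 1.29, 1.07 to 1.57), of cells with Saa3 UMIs (349 and 273, 1.28, 1.09 to 1.51) and of KO LPS cells meeting the rule (274 and 97, 2.78, 2.20 to 3.54). Fewer cells carried this list among members than among the other cells in 2 of these comparisons, with 31 of 66 members against 36 cells with a sum of 0, and 90 of 142 members against 97 cells with Saa3 UMIs. More members carried it in the others, with 71 of 116 against 68 cells with a sum of 1 to 3, and 72 of 121 against 61 KO LPS cells. The median share in the 66 pairs was 0% in members and 0.0535% in cells with a sum of 0, and 1 paired member held 13 of the 106 UMIs. Median shares were 0.0680% and 0.0561% against a sum of 1 to 3, and 0.0675% and 0.0235% against KO LPS cells. The comparisons share the members. Mitosis genes were detected in 14 members (9.86%). Immediate early genes, which also respond to tissue dissociation, stood at 1.16 (1.01 to 1.35) as a sum over cells with a sum of 0, but of the 7 genes tested 3 were higher and 4 lower (median log2 ratio -0.01), and the transcriptional regulator Btg2 had 24 and 10 UMIs (2.38, 1.10 to 5.59).

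The stress-inducible metallothionein Mt1 had 7 UMIs in members and 25 in cells with a sum of 0 (0.278, 0.102 to 0.662), and the nuclear long non-coding RNA Neat1 9 and 24 (0.373, 0.152 to 0.830). Apoe, a lipid carrier, had 46 and 28 UMIs (1.63, 0.999 to 2.71). Over all cells, Apoe stood at 618 CPM (UMIs per 1e6 UMIs) in members, 358 in cells with a sum of 0, 743 in cells with a sum of 1 to 3, 654 in cells with Saa3 UMIs and 140 in KO LPS cells meeting the rule. Against cells with a sum of 1 to 3 it was among the 10 lowest of the genes with at least 100 UMIs (103 and 151 UMIs, 0.673, 0.519 to 0.870).

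The antigen presentation list was at 0.931 (0.825 to 1.05) over cells with a sum of 0, the disease-associated microglia list at 1.07 (0.991 to 1.16), the antioxidant list at 0.859 (0.705 to 1.05), the glycolysis list at 0.985 (0.748 to 1.30), the purinergic list at 1.23 (0.861 to 1.77), the scavenger receptor list at 0.952 (0.783 to 1.16) and the mitosis list at 1.14 (0.360 to 3.68).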
